A study of Mus musculus with 18 samples.

Results

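After a coronary artery is tied in the mouse, 180 genes had a mean RNA level in the heart that was lower than in sham-operated mice at 6 h and higher than in sham-operated mice at 72 h. They were chosen from 30583 listed genes by their values in the sham, 6 h and 72 h groups. The rule kept genes with a sham mean of at least 2 CPM (counts per megacount of the library), a log2 ratio of the 6 h mean to the sham mean of -0.7 or less, and a log2 ratio of the 72 h mean to the sham mean of 0.7 or more. Both ratios were taken after adding 0.5 CPM to each mean. These limits equal 0.616 times and 1.62 times the sham level. Of 11943 genes with the sham minimum, 870 (7.28%) met the limit at 6 h and 4661 (39%) met the limit at 72 h. The levels of the 180 genes in those 3 groups chose them, so they are given below as descriptions without a test.

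The libraries came from 18 male C57BL/6JR mice aged 12 weeks, 3 in each of 6 groups. In 5 groups a myocardial infarction (MI) was caused under sodium pentobarbital by tying off the left anterior descending branch of the coronary artery, and the heart was taken under isoflurane after 10 min or after 1, 6, 24 or 72 h. Sham mice, the controls for all groups, went through surgery too, but their suture was left untied. RNA came from the infarcted left ventricle. The labels give cardiomyocytes as the cell type but describe no separation of cells. Markers of other heart cells were present: 16 vascular endothelial markers summed to 4292 to 4565 CPM in sham and 16 fibroblast markers to 2030 to 2378 CPM, with none of either list at 0, beside 84038 to 88153 CPM for 14 cardiomyocyte markers.

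Scar formation in the heart rests on fibroblasts, which in health keep a thin network of collagens and small proteoglycans around the muscle. After an infarct, leukocytes enter the dying muscle, and fibroblasts then divide, turn into myofibroblasts and deposit collagen type I and type III. Resident macrophages, which carry the fractalkine receptor Cx3cr1, are lost from the infarct early, and blood monocytes later give rise to new macrophages. In bulk tissue, fewer cells of a type and less RNA per cell cannot be told apart.

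Library totals ran from 18.2 to 25.1 megacounts. The summed level of the 14 cardiomyocyte markers was 66266 to 82615 CPM at 6 h, 43603 to 65661 CPM at 24 h and 31057 to 40880 CPM at 72 h, and mitochondrial genes took 8.41 to 10.5% of counts at 72 h against 23.8 to 26.1% in sham. Their part in the ratios below was not tested. The median log2 ratio to sham over the 11943 genes was -0.12 at 6 h, 0.17 at 24 h and 0.49 at 72 h with library totals, and -0.02, -0.02 and -0.08 with TMM scaling, which sets each library by its middle genes.

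The median of the 180 genes lay near sham at 10 min and slightly under it at 1 h, dipped at 6 h, was back near sham at 24 h and stood highest at 72 h. The median log2 ratio to sham was -0.03 at 10 min, -0.15 at 1 h, -0.85 at 6 h, -0.09 at 24 h and 1.32 at 72 h. Single genes ranged from -1.13 to 1.48 at 10 min and from -1.81 to 0.43 at 1 h, and 156 of the 180 were under sham at 1 h. With TMM scaling the medians at 6, 24 and 72 h were -0.75, -0.28 and 0.77. The 180 genes together took 0.247 to 0.294% of the counts of each sham library and 0.136 to 0.144% at 6 h. They took 0.244 to 0.367% at 24 h and 1.61 to 1.91% at 72 h. Col3a1, a collagen III chain, made up 4.63% of the summed CPM of these genes in sham and 39.9% at 72 h.

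**Figure D1:**
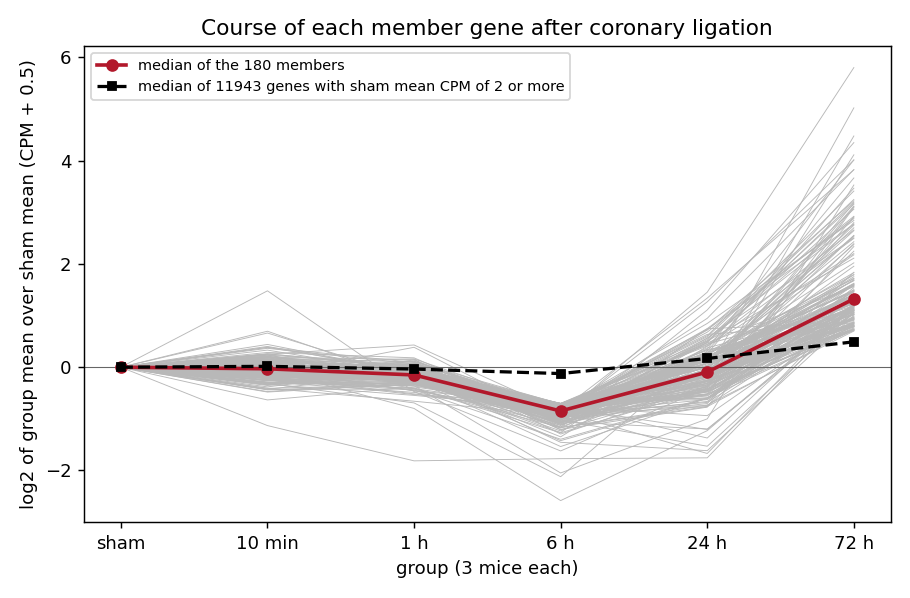
Each grey line is 1 of the 180 genes, with the log2 ratio of each group's mean to the sham mean (CPM + 0.5) on the vertical axis and the 6 groups on the horizontal axis. The median of the 180 genes (red) lay at -0.85 at 6 h and 1.32 at 72 h, and the median of 11943 genes (black, dashed) at -0.12 and 0.49.

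With library totals, all 180 genes had their highest group mean at 72 h, and 172 had their lowest at 6 h. Of the rest, 7 were lowest at 24 h, namely Islr, Ogn, Cenpf, Itih5, Pkhd1l1, Gpm6a and Dpp4, and the mesothelial gene Upk3b was lowest at 1 h. With TMM scaling 177 were highest at 72 h, with Blk and Magt1 highest at 24 h and Hs1bp3 at 10 min, and 163 were lowest at 6 h and 17 at 24 h. Gbp3, Adamts10, Heyl and Pde5a were among the genes that became lowest at 24 h on that scale. By library totals, in 177 genes every 6 h library lay under every sham library, where 32.8% of the 11943 genes did so, and in 178 every 72 h library lay above every sham library, where 63.7% did. The rule itself favours such genes. The span from 6 h to 72 h ran from 1.45 to 6.75 on the log2 scale, with a median of 2.2. At 24 h the genes had covered a median of 35.1% of that span (quartiles 24.2 and 42.8%). The ratio to sham at 24 h shares the sham libraries with the rule. It was at or over 0.7 in 10 genes (5.56%, against 14.8% of the 11943 genes) and at or under -0.7 in 16 (8.89%, against 4.81%).

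The number of genes past both limits depended on the scaling. With TMM factors 65 genes passed, and 64 of these were among the 180. Leaving out single libraries gave 150 to 226 genes, and 92 of the 180 were kept whichever of the 9 libraries was left out. Nearest inside the limit at 6 h were Gbp3, Mrc2 and Rtel1, each at -0.70, and nearest outside were Mfsd12, Ifi44 and Steap3, each also at -0.70 after rounding. Nearest inside the limit at 72 h were Mndal (0.70), Fam117a (0.71) and Rtn1 (0.72), and nearest outside were Rttn (0.70), Tppp3 (0.69) and Dnm1 (0.69).

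**Figure D2:**
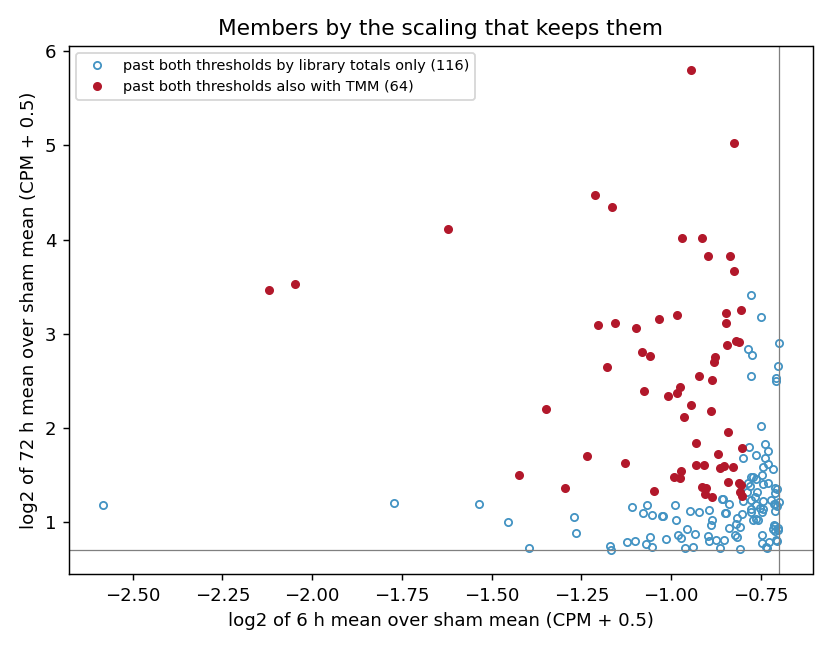
Each circle is 1 of the 180 genes, with its log2 ratio to sham at 6 h on the horizontal axis and at 72 h on the vertical axis, by library totals (CPM + 0.5), and grey lines at the 2 limits. Filled red circles are the 64 genes that also pass with TMM scaling; the 116 open circles, which do not, lie mostly near a limit, with exceptions such as Aplnr at the far left.

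In features that the rule did not use, the 180 genes were mostly protein-coding (178 genes, 98.9%, against 94.3% of the 11943). Their genes spanned a median of 26.9 kb, against 23.7 kb. Their sham level, which the rule did use, had a median of 7.01 CPM against 20.1 CPM. Of 45 lists of pathways and cell markers, 25 held at least 1 of the genes and 8 held 2 or more, and 38 of the 180 genes stood in some list. Collagen chains came first with 6 genes, ahead of proteoglycans and matricellular proteins with 4, and fibroblast markers and metalloproteinases with 3 each. Of the genes with the sham minimum, 1.51% were in the set, so a list of this length may hold none at that share. None came from the list of 31 DNA replication genes (19 with the sham minimum), on which Rpa3, a gene of the set, did not stand. The 14 cardiomyocyte markers (all with the minimum) gave none either. The 12 markers of recruited monocytes and macrophages and the 12 neutrophil markers also gave none, but only 5 and 1 of these had the sham minimum, so the others could not be chosen.

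The libraries at 10 min, 1 h and 24 h had no part in the choice of the genes, so the differences among these 3 groups were tested with edgeR's quasi-likelihood test on all 18 libraries, with Benjamini-Hochberg adjustment over 16311 genes. The spread in this test drew on all 18 libraries, including those that chose the genes, so the test is not wholly separate from the choice. All 180 genes could be tested. Between 1 h and 24 h, 63 of the 180 passed an adjusted p of 0.05 (35%, against 44.5% of all genes tested), of which 24 were higher at 24 h (13.3%, against 24.1%) and 39 lower (21.7%, against 20.5%). In this fit the share called lower was thus near that of all genes, and the share called higher was below it. The smallest adjusted p values among the higher genes were those of Col3a1, Aif1, Col5a1 and Pld4, and among the lower genes those of Itih5, Islr, Pde5a and Heyl. With library totals as the scale the median log2 change of all genes moved from 0.02 to 0.24, and the split became 40 higher and 19 lower. Of all 16311 genes, 5832 were higher and 1705 lower on that scale. Called on both scales in the same direction were 24 genes that were higher and 19 that were lower, and none was called in opposite directions.

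Replicate 2 at 24 h stood apart from the other 24 h libraries. The 180 genes summed to 3670 CPM in it, against 2441 and 2508 CPM, and mitochondrial genes took 17.7% of its counts, against 22.8 and 24.0%. The 12 markers of recruited monocytes and macrophages, none at 0, summed to 535 CPM in it and to 587 CPM in replicate 1. On that sum replicate 3 stood apart, at 1647 CPM. Without replicate 2 at 24 h, 13 of the 180 genes were called higher and 57 lower than at 1 h. Of all 16721 genes tested in that fit, 3631 were higher and 3073 lower. Without replicate 3 at 24 h the calls were 26 and 26, beside 3156 higher and 2436 lower of 16720 genes. What the makeup of replicate 2 adds to the calls was not tested otherwise.

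**Figure D3:**
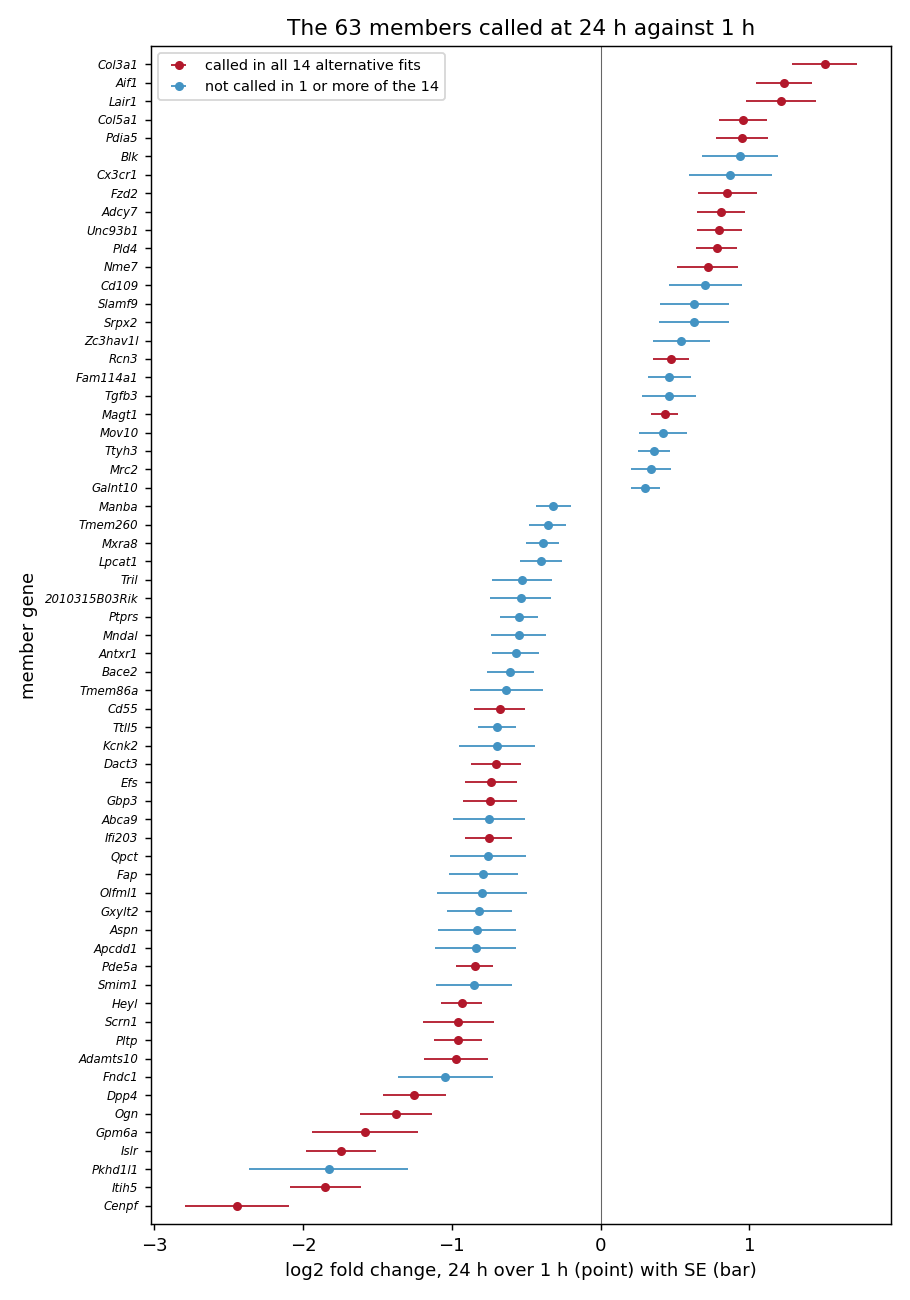
Log2 fold change from 1 h to 24 h (point) with its SE (bar) for the 63 genes called by edgeR, 1 gene per row. The 24 genes at the top were higher at 24 h, led by Col3a1 at 1.51, and the 39 below were lower, down to Cenpf; the 28 in red were called in all 14 alternative fits.

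Against 10 min, a comparison that shares the 24 h libraries with the one above, 71 of the 180 genes were called at 24 h (39.4%, against 42.3% of all genes tested). Of these, 16 were higher (8.89%, against 22.5%) and 55 lower (30.6%, against 19.8%). Library totals gave 28 higher and 28 lower, beside 5232 higher and 1792 lower among all 16311 genes. Between 10 min and 1 h edgeR called 0 of the 180 (against 0.307% of all genes tested, 0.251% higher and 0.0552% lower), with 15 at an unadjusted p under 0.05. DESeq2 called 1 gene, Col3a1 (against 0.806% of all genes tested), and limma on log2(FPKM + 1) called 1, Spon2 (against 0.398%). A fit to the 6 libraries of those groups alone called 6 genes, where 1.71% of all genes tested were called. All 6 were lower at 1 h: Col3a1, Col5a1, Col6a1, Col6a2, Col15a1 and Plxnd1.

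The collagen chains included the widest span of the set. Col3a1 (ENSMUSG00000026043, chr1:45311538-45349706 on the plus strand of GRCm38), the chain of fibrillar collagen III, read 120, 98.3 and 159 CPM in the sham mice. It read 207, 192 and 213 CPM at 10 min, 80.6, 107 and 122 CPM at 1 h, and 71.5, 74.6 and 49.4 CPM at 6 h. It then read 251, 484 and 303 CPM at 24 h and 6035, 8042 and 7084 CPM at 72 h. The 10 min mice thus lay above all sham and 1 h mice, the 6 h mice below all of them, and the 72 h mice far above every other group. At 72 h the mean was 55.8 times the sham mean on the CPM + 0.5 scale. The change from 1 h to 24 h was 1.51 ± 0.22 (log2, SE; edgeR adjusted p = 5.23e-05), and every 24 h mouse lay above every 1 h mouse.

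Col5a1, a minor fibrillar chain that starts collagen I fibrils, followed the same order. It read 49.9, 39.7 and 53.1 CPM in sham, 40.4, 46.9 and 48.5 CPM at 1 h, and 23.3, 21.2 and 18.3 CPM at 6 h. It read 83.7, 135 and 91.2 CPM at 24 h and 833, 1226 and 879 CPM at 72 h. None of these groups overlapped another except sham and 1 h. From 1 h to 24 h it rose by 0.96 ± 0.16 (log2, SE; edgeR adjusted p = 0.000181).

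The other 4 collagens did not pass that test. Against 10 min, 2 of the 6 collagens were higher at 24 h and 3 lower. Col3a1 (0.56 ± 0.21, log2, SE; edgeR adjusted p = 0.0441) and Col5a1 (0.53 ± 0.16, adjusted p = 0.0126) were higher, calls that without replicate 2 at 24 h were lost (adjusted p = 0.276 and 0.0903). Col6a1 (-0.76 ± 0.16, edgeR adjusted p = 0.000939), Col6a2 (-0.56 ± 0.16, adjusted p = 0.00886, but 0.0664 with library totals) and Col14a1 (-0.95 ± 0.27, adjusted p = 0.0103, up to 0.0538 in other fits) were lower. Col15a1, of the basement membrane zone, read 56.4 to 83.8 CPM in sham, 28.4 to 54.9 CPM at 6 h, 99.8 to 154 CPM at 24 h and 425 to 764 CPM at 72 h. Its change from 1 h to 24 h was 0.66 ± 0.26 (edgeR adjusted p = 0.0546). Among the alternative fits it passed with library totals (edgeR adjusted p = 0.0129), DESeq2 (0.0286) and limma (0.00992), in a range of 0.00992 to 0.190. The paired collagen VI chains Col6a1 and Col6a2, which form beaded microfibrils around cells, had similar levels throughout, at 62.5 to 92.6 CPM in sham, 37.4 to 53.5 CPM at 6 h and 396 to 507 CPM at 72 h. Col14a1, which coats collagen fibrils, was still low at 24 h. It read 10.6, 10.9 and 15.6 CPM in sham, 4.91, 6.02 and 4.21 CPM at 6 h, 8.76, 14.6 and 4.92 CPM at 24 h, and 235, 333 and 290 CPM at 72 h, so its 24 h mice still overlapped sham and 6 h. Its change from 1 h to 24 h was -0.67 ± 0.27 (edgeR adjusted p = 0.0557), and -1.06 (adjusted p = 0.00358) without replicate 2 at 24 h. It also passed with DESeq2 (adjusted p = 0.0231) and with a replicate block in edgeR (0.0381), but not with library totals (0.238).

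Of the 23 collagen genes with the sham minimum, 7 met the limit at 6 h and 19 the limit at 72 h. Over the 34 collagen genes tested from 1 h to 24 h, 14 were higher and 9 lower, with a median log2 change of 0.07, against 0.02 for all genes. Per length, Col3a1 stood first among the 180 genes at 72 h at a mean of 719 FPKM (fragments per kilobase and megafragment), after 12.8 FPKM in sham. The next was Rcn3, a calcium-binding protein of the endoplasmic reticulum, at 168 FPKM, singled out after its values were seen.

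The promoter of Col3a1 is shown because no gene of the set changed more. The 120 bases before its RefSeq start on GRCm38.p6 (chr1:45311418-45311537, plus strand) are given 5′ to 3′, with capitals marking a TATAAA match on the plus strand far upstream of the start.
Col3a1: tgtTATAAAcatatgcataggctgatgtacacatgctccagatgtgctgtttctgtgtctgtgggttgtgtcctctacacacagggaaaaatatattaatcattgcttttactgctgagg

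**Figure D4:**
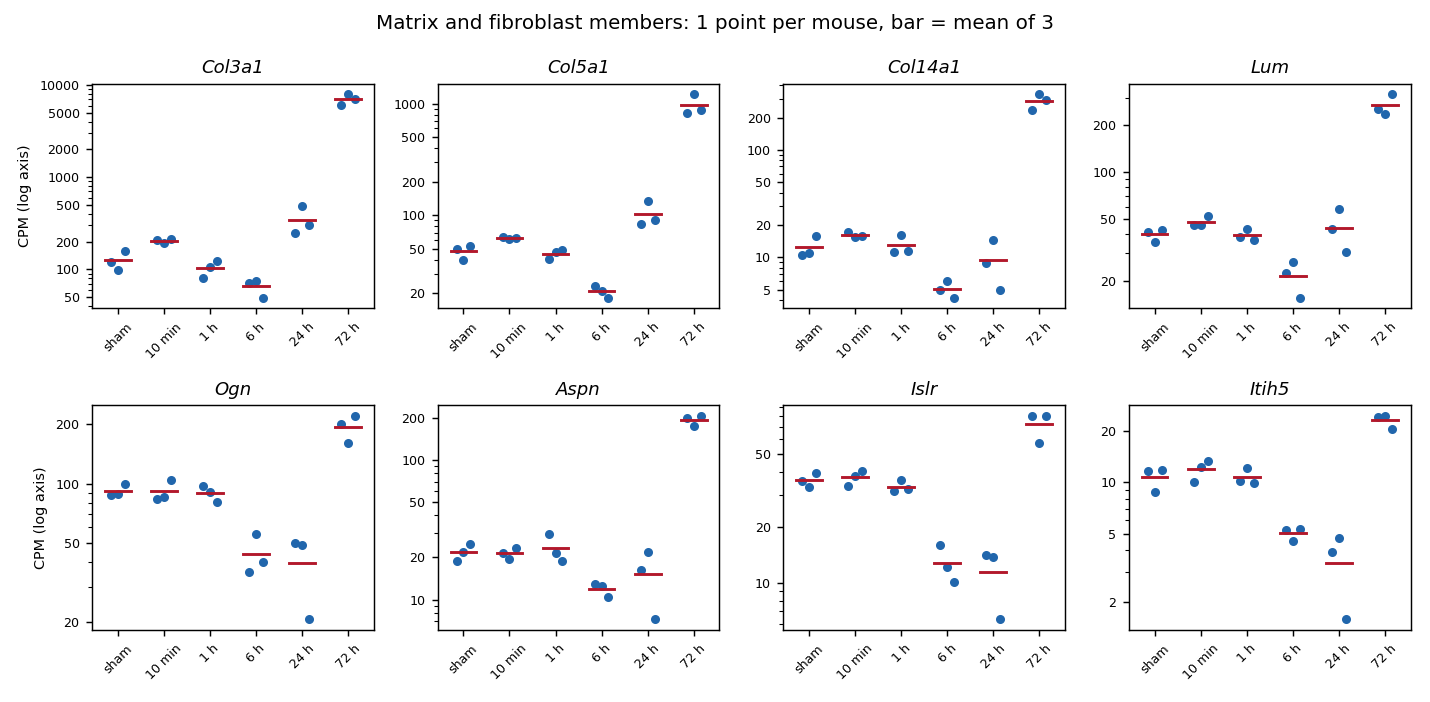
CPM (log axis) of 8 genes of matrix and fibroblasts, with 1 point per mouse in 6 groups and a red bar at the mean of 3. Every 6 h mouse lies under every sham mouse and every 72 h mouse above; at 24 h Col3a1 and Col5a1 are above sham, while the 24 h means of Ogn, Islr and Itih5 lie under their 6 h means.

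Of the 4 genes on the proteoglycan and matricellular list, Ogn and Aspn were called lower at 24 h than at 1 h, and Lum and Spon2 were not. Osteoglycin (Ogn, ENSMUSG00000021390, chr13:49608046-49624501, plus strand), a leucine-rich proteoglycan that binds collagen, was the first of the 180 genes per length in sham at 35.8 FPKM. It read 88.0, 88.5 and 99.0 CPM in sham, 96.7, 90.2 and 80.3 CPM at 1 h and 35.9, 55.8 and 40.2 CPM at 6 h. At 24 h it read 49.8, 49.0 and 20.6 CPM, and at 72 h 200, 160 and 220 CPM. The 24 h mice overlapped the 6 h mice and lay under all sham and 1 h mice. Ogn fell by 1.38 ± 0.24 from 1 h to 24 h (log2, SE; edgeR adjusted p = 0.000440), a call that every alternative fit kept.

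Asporin (Aspn), a relative of Ogn that binds TGF-beta, read 18.9 to 24.9 CPM in sham, 10.5 to 13 CPM at 6 h, 7.21 to 22.0 CPM at 24 h and 174 to 208 CPM at 72 h. It was called lower at 24 h than at 1 h (-0.83 ± 0.26, edgeR adjusted p = 0.0187), but not with library totals (-0.60, adjusted p = 0.0848) or without replicate 1 at 1 h (-0.63, adjusted p = 0.0958), in a range of 0.00363 to 0.120 over the alternative fits. An exon of Aspn overlaps Cenpp on the other strand, and whether the counting used strand is not given in the sources used here. Lumican (Lum), which spaces collagen fibrils, had no such fall, with a change of -0.06 ± 0.18 (adjusted p = 0.802), and was at 35.5 to 42.6 CPM in sham, 15.5 to 26.2 CPM at 6 h and 237 to 320 CPM at 72 h. Spon2, a secreted matrix protein that takes part in innate immunity, read 3.10, 2.45 and 2.51 CPM in sham but 9.56, 7.48 and 8.10 CPM at 10 min. It was at 0.353, 2.07 and 2.97 CPM at 1 h, 1.03, 0.297 and 0.278 CPM at 6 h, and 65.9, 44.5 and 53.5 CPM at 72 h. Its 10 min mice lay above sham, 1 h and 6 h without overlap, and from 10 min to 24 h it fell by 2.30 on the log2 scale (edgeR adjusted p = 0.00290). The change from 10 min to 1 h was -2.21 ± 0.53 (adjusted p = 0.162). Across the 35 proteoglycan and matricellular genes tested from 1 h to 24 h, 11 were higher and 17 lower.

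The Ogn promoter is shown as that of a gene lowest at 24 h. The stretch (chr13:49607895-49608014, plus strand, GRCm38.p6) holds 1 GGAATG match, the core of a TEAD factor site, in capitals.
Ogn: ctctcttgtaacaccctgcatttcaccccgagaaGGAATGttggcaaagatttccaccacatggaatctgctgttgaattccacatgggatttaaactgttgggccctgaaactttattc

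Among fibroblast genes, Islr (meflin), a surface protein of resident fibroblasts and mesenchymal progenitors, read 35.5, 33.0 and 39.4 CPM in sham and 31.4, 35.9 and 32.2 CPM at 1 h. It read 16.1, 12.2 and 10.1 CPM at 6 h, 14.1, 13.8 and 6.34 CPM at 24 h and 80.4, 57.1 and 80.0 CPM at 72 h. The 24 h values overlapped those at 6 h and were all under 1 h (-1.75 ± 0.24, log2, SE; edgeR adjusted p = 4.26e-05). Itih5, a heavy chain that binds hyaluronan, had the smallest adjusted p of the 180 genes in that comparison. It read 10.1, 12.1 and 9.91 CPM at 1 h and 3.91, 4.71 and 1.58 CPM at 24 h, with no overlap (-1.85 ± 0.24, edgeR adjusted p = 1.61e-05). At 72 h it read 24.2, 24.5 and 20.4 CPM, against 8.79 to 11.8 CPM in sham.

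The 16 fibroblast markers summed to 1946 to 2187 CPM at 6 h, 1229 to 1555 CPM at 24 h and 3202 to 3763 CPM at 72 h, with none at 0 in any group. From 1 h to 24 h, 4 of the 16 were higher and 9 lower (median log2 change -0.60), and the part of fibroblast number in the values of Islr, Lum and Col15a1 was not tested. The myofibroblast marker Fap, a surface protease, went against its list. It was called lower at 24 h (-0.79 ± 0.23, edgeR adjusted p = 0.0100, but up to 0.139 in other fits, library totals among those that lost the call), while 7 of the 12 myofibroblast markers were called higher and 2 lower.

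Lrrc17, a secreted leucine-rich repeat protein, had one of the deepest dips. It read 3.24, 3.53 and 3.28 CPM in sham, 0.541, 0.382 and 0.370 CPM at 6 h, 1.24, 2.75 and 0.273 CPM at 24 h and 37.0, 43.2 and 51.5 CPM at 72 h. Its 24 h mice ranged from the 6 h level to near the sham level, and its change from 1 h (-0.98 ± 0.41) missed the threshold (edgeR adjusted p = 0.0612), but passed it without replicate 2 at 24 h (-1.79, adjusted p = 0.00149). It also passed with DESeq2 (adjusted p = 0.0252) and with a replicate block in edgeR (0.0432), but not with library totals (0.171). Among proteases, Adamts10, which acts on fibrillin microfibrils, read 40.1 to 48.1 CPM in sham, 19.1 to 31.4 CPM at 6 h and 78.2 to 117 CPM at 72 h, and it was lower at 24 h than at 1 h (-0.97 ± 0.21, adjusted p = 0.00185). Mmp23, a membrane-anchored metalloproteinase, read 6.16 to 7.50 CPM in sham, 2.76 to 3.15 CPM at 6 h and 46.1 to 57.5 CPM at 72 h. Mmp11 (stromelysin-3) read 5.53 to 7.17, 2.26 to 4.21 and 12.4 to 17.2 CPM in the same groups, and its exons overlap those of Chchd10 on the other strand. Neither Mmp23 (-0.22 ± 0.19) nor Mmp11 (-0.26 ± 0.22) passed the test from 1 h to 24 h, though Mmp23 did without replicate 2 at 24 h (-0.53, edgeR adjusted p = 0.0214). Of 36 metalloproteinase genes and inhibitors tested, 14 were higher and 12 lower.

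Signalling genes of the set moved in both directions by 24 h. Fzd2, a Wnt receptor, read 5.87, 5.67 and 6.15 CPM at 1 h and 10.8, 16.4 and 10.2 CPM at 24 h, a rise of 0.85 ± 0.20 (log2, SE; edgeR adjusted p = 0.00229). At 72 h it read 47.0 to 57.2 CPM, against 6.53 to 8.13 CPM in sham. Sfrp2, a secreted Wnt modulator made by fibroblasts, was second only to Col3a1 in its span. It read 2.04, 1.69 and 3.75 CPM in sham, 1.23, 0.763 and 1.57 CPM at 6 h, 1.93, 3.95 and 0.984 CPM at 24 h and 74.0, 82.8 and 133 CPM at 72 h. At 24 h replicate 3 was thus within the 6 h range, replicate 1 within the sham range and replicate 2 above it, and its change from 1 h was -0.20 ± 0.41 (adjusted p = 0.724). Only 3 of 41 Wnt genes tested were called higher from 1 h to 24 h and 13 lower. Heyl, a Notch target of mural cells, fell by 0.93 ± 0.14 (adjusted p = 5.95e-05), from 39.6 to 40.1 CPM at 1 h to 16.9 to 32.2 CPM at 24 h, and read 71.1 to 75.5 CPM at 72 h. Pde5a, the phosphodiesterase that breaks down cGMP in smooth muscle, fell by 0.85 ± 0.12 (adjusted p = 4.80e-05), from 6.54 to 6.80 CPM to 3.83 to 4.99 CPM. The 9 pericyte markers summed to 1218 to 1307 CPM at 1 h and 681 to 921 CPM at 24 h, with 0 called higher and 5 lower, and their part in the values of Heyl and Pde5a was not tested.

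The lists of leukocyte markers gave few of the 180 genes: Cx3cr1 came from the 18 resident macrophage markers and Blk from the 10 B cell markers. None of the 34 Fc receptors and immune signalling adaptors, 24 with the sham minimum, was in the set. Cx3cr1 (ENSMUSG00000052336, chr9:119901616-120069879, minus strand), the fractalkine receptor of resident macrophages and patrolling monocytes, read 4.86, 6.35 and 7.28 CPM in sham. It read 3.85, 4.84 and 5.89 CPM at 10 min, 3.67, 2.83 and 4.38 CPM at 1 h and 1.03, 1.19 and 0.879 CPM at 6 h. It read 5.88, 13 and 4.48 CPM at 24 h and 63.9, 77.1 and 78.5 CPM at 72 h. The 6 h mice were far below all others, at 0.230 times the sham mean, the second deepest dip of the 180 genes. The rise from 1 h to 24 h (0.87 ± 0.28, log2, SE; edgeR adjusted p = 0.0188) shrank to 0.35 (adjusted p = 0.197) without replicate 2 at 24 h. Without replicate 1 or 2 at 1 h it was 0.87 or 0.72 with an adjusted p of 0.0528 or 0.0843, and over all 14 alternative fits it ran from 0.00153 to 0.197.

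The other 17 resident macrophage markers held no gene of the set. Over all 18 markers the sum was 354 to 435 CPM in sham, 391 to 503 CPM at 6 h, 624 to 723 CPM at 24 h and 3349 to 4099 CPM at 72 h, with none at 0. Of the 17 with the sham minimum, Cx3cr1 was the only one at or under the 6 h limit, while 4 were 1.62-fold or more above sham. From 1 h to 24 h, 9 of the 18 were called higher and 1 lower.

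Aif1 (Iba1, ENSMUSG00000024397, chr17:35170991-35176068, minus strand), an actin-binding protein of macrophages, read 2.45, 3.10 and 2.55 CPM in sham, 2.38, 2.89 and 2.61 CPM at 1 h and 0.885, 1.70 and 1.02 CPM at 6 h. It read 5.97, 9.14 and 6.5 CPM at 24 h and 49.9, 45.7 and 58.0 CPM at 72 h. No 6 h mouse reached the sham range, and every 24 h mouse exceeded every 1 h mouse (1.23 ± 0.19, log2, SE; edgeR adjusted p = 8.13e-05). Pld4, an exonuclease of the endolysosome in myeloid cells, rose by 0.78 ± 0.14 (adjusted p = 0.000245), from 7.68, 5.45 and 6.36 CPM at 1 h to 10.9, 14.6 and 13.9 CPM at 24 h. It read 2.97 to 3.49 CPM at 6 h and 88.1 to 113 CPM at 72 h.

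Cd72, a lectin-like receptor of B cells and some macrophages, differed widely among the 24 h mice. It read 2.65, 1.74 and 2.61 CPM at 1 h, 1.08, 0.890 and 0.971 CPM at 6 h, 2.1, 6.34 and 1.15 CPM at 24 h and 48.6, 44.6 and 45.8 CPM at 72 h. Its change from 1 h to 24 h was 0.23 ± 0.37 (edgeR adjusted p = 0.641) and turned to -0.67 (adjusted p = 0.0369) without replicate 2 at 24 h; over the alternative fits the adjusted p ran from 0.0369 to 0.925. Its exons overlap those of Tesk1 on the other strand, a gene at 19.7 CPM in sham.

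Other leukocyte genes, singled out after their values were seen, were also called higher. The collagen receptor Lair1 rose by 1.21 ± 0.24 from 1 h to 24 h (edgeR adjusted p = 0.000552), and Unc93b1, which carries Toll-like receptors to endosomes, by 0.80 ± 0.15 (adjusted p = 0.000417). Slamf9, a receptor of the SLAM family, rose by 0.63 ± 0.23 (adjusted p = 0.0338), a call lost without replicate 2 at 24 h or any single 1 h replicate (adjusted p up to 0.263). In sham these 3 genes read 1.90 to 2.34, 21.1 to 27.7 and 2.82 to 4.81 CPM, at 6 h 0.688 to 1.36, 11.8 to 14.4 and 1.48 to 2.37 CPM, and at 72 h 35.3 to 38.8, 187 to 267 and 17.8 to 19.8 CPM.

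The promoters of 3 myeloid genes of the set, chosen after their values and sequences were seen, show the letters GAGGAA, a purine-rich core that ETS factors such as PU.1 can bind. These letters are not particular to leukocyte genes here: the promoters of Cx3cr1 and Pld4 do not hold them in the 250 bases searched, and those of Col5a1, Col6a1, Itga11 and Srpx2 do. Capitals mark them, read on the minus strand in Aif1 and Lair1. The stretches are chr17:35176053-35176172 (minus strand) for Aif1, chr7:4063205-4063324 (minus strand) for Lair1 and chr1:172475240-172475359 (plus strand) for Slamf9, each of 120 bases before the RefSeq start on GRCm38.p6, given 5′ to 3′ along the gene.
Aif1: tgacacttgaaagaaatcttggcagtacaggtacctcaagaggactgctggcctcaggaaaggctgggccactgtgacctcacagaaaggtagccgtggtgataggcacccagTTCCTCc
Lair1: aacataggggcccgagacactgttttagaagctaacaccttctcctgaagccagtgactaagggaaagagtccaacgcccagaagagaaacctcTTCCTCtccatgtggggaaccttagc
Slamf9: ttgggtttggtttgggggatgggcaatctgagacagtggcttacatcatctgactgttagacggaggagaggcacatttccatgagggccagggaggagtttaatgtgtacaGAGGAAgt

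**Figure D5:**
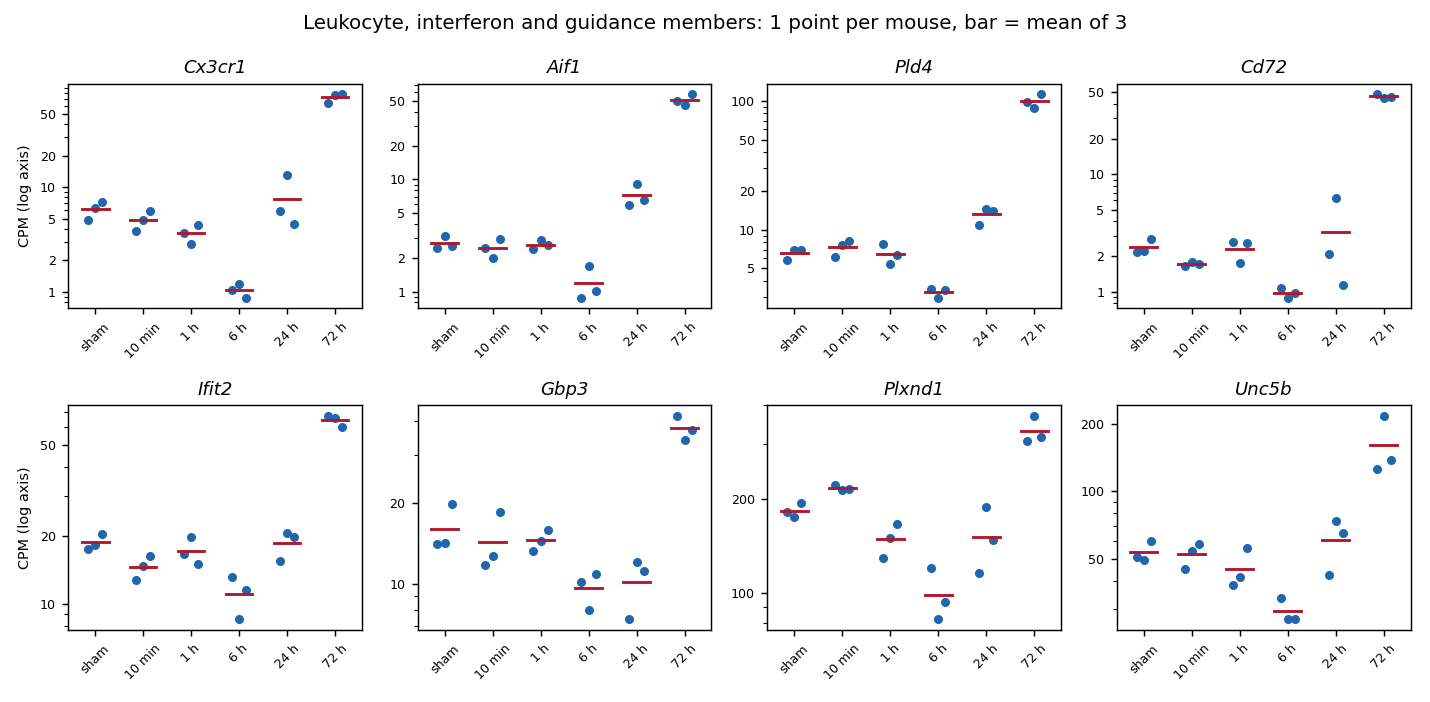
CPM (log axis) of 8 genes of leukocytes, the interferon response and guidance, with 1 point per mouse in 6 groups and a red bar at the mean of 3. Every 6 h mouse lies under every sham mouse and every 72 h mouse above; at 24 h the points of Cx3cr1 and Cd72 are spread by 1 high mouse, replicate 2.

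The list of 27 interferon-stimulated genes gave 2 of the 180. It does not cover every such gene: Cmpk2, Ifi203, Mndal and Psmb9, also in the set, were not on it. Ifit2, an antiviral RNA-binding protein, read 17.5, 18.2 and 20.4 CPM in sham, 13.1, 8.56 and 11.6 CPM at 6 h, 15.5, 20.6 and 19.7 CPM at 24 h and 67.4, 65.6 and 59.9 CPM at 72 h. It was back in or near the sham range at 24 h, and its change from 1 h was -0.10 ± 0.14 (edgeR adjusted p = 0.583). Gbp3, a guanylate-binding GTPase, stayed low, with 13.2, 14.4 and 15.8 CPM at 1 h, 10.1, 7.97 and 10.8 CPM at 6 h and 7.38, 12.0 and 11.1 CPM at 24 h, against 42.0, 34.0 and 37.2 CPM at 72 h. It fell by 0.74 ± 0.18 from 1 h to 24 h (adjusted p = 0.00309), while 11 of the 27 interferon-stimulated genes tested were called higher and 3 lower. All 22 listed genes with the sham minimum but 1 were at or over the limit at 72 h. Of these 22, only Ifit2 and Gbp3 met the limit at 6 h.

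The Gbp3 promoter (chr3:142559924-142560043, plus strand, GRCm38.p6) is shown for 2 overlapping matches on the minus strand to the core of the interferon-stimulated response element (GAAA, any 2 bases, GAAA), in capitals.
Gbp3: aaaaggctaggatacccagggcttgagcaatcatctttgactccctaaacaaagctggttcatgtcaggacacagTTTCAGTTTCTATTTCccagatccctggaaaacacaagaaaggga

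Over the 250 bases before the RefSeq start, 138 of the 180 genes had a promoter sequence and 9095 of the 11943 background genes did. On either strand, GAGGAA stood in 31.2% of the promoters of the set against 22.4% of all, and the interferon-stimulated response element core in 6.52% against 2.57%. TATAAA stood in 9.42% against 6.33%, CCAAT in 38.4% against 36.1%, TGANTCA (AP-1) in 6.52% against 3.90%, GGAATG in 15.2% against 10.5%, and TTTGAA, a cell cycle element core, in 14.5% against 9.95%. The GC box GGGCGG stood in 44.9% against 60.9% and the E-box CACGTG in 5.07% against 8.65%. The promoters of the set were also poorer in GC, at a median of 58.2% against 60.4%, with 11 CpG sites against 16. The shares are descriptions of these letters and show no binding.

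The axon guidance list gave 2 receptors that endothelium also carries. Plxnd1, a semaphorin receptor of endothelium, read 181, 175 and 195 CPM in sham, 221, 213 and 215 CPM at 10 min, 129, 150 and 167 CPM at 1 h and 120, 82.2 and 93.5 CPM at 6 h. It read 115, 189 and 148 CPM at 24 h and 307, 371 and 316 CPM at 72 h. Its 10 min mice lay above the sham mice and its 1 h mice below them, without overlap. From 10 min to 24 h it fell by 0.72 on the log2 scale (edgeR adjusted p = 0.00112), and from 1 h to 24 h its change was -0.21 ± 0.15 (adjusted p = 0.265). Unc5b, a netrin receptor of endothelium, read 49.9 to 60.1 CPM in sham, 27.1 to 33.8 CPM at 6 h, 42.5 to 74.1 CPM at 24 h and 126 to 217 CPM at 72 h. The change from 1 h to 24 h was 0.18 ± 0.21 (adjusted p = 0.507).

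The deepest dip of the set was that of Aplnr, the apelin receptor of endothelium, singled out after its values were seen. It read 51.0, 34.1 and 48.3 CPM in sham, 19.7, 22.2 and 34.1 CPM at 1 h, 6.34, 7.97 and 6.71 CPM at 6 h and 13, 32.5 and 10.6 CPM at 24 h. The 6 h mean was 0.167 times the sham mean, and at 72 h it read 86.6, 121 and 96.1 CPM. It fell by 1.39 from 10 min to 24 h (edgeR adjusted p = 0.00452). The 16 vascular endothelial markers held none of the 180 genes, summed to 5332 to 5747 CPM at 6 h and 3013 to 3412 CPM at 72 h, and only 1 of them met the limit at 6 h.

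The list of 35 chromatin writers and readers gave the Polycomb subunits Cbx8 and Cbx2, which lie close together on chromosome 11. Kmt5c and Hjurp, also in the set, were not on that list. Cbx8 read 4.33 to 5.58 CPM in sham, 2.06 to 3.43 CPM at 6 h, 5.41 to 7.98 CPM at 24 h and 8.61 to 11 CPM at 72 h. Cbx2 read 4.89 to 4.95, 1.28 to 2.97, 3.77 to 5.59 and 8.17 to 10.4 CPM in the same groups. Neither passed the test from 1 h to 24 h (0.48 ± 0.21, edgeR adjusted p = 0.0692, and -0.01 ± 0.22, adjusted p = 0.976), although Cbx8 did with library totals (0.70, adjusted p = 0.0193, in a range of 0.0193 to 0.266 over the alternative fits).

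Cenpf, a kinetochore protein, was the only one of 32 listed mitosis genes in the set, and is named for its direction after its values were seen. It read 15.6, 9.78 and 8.81 CPM in sham, 13.6, 15.1 and 17.9 CPM at 1 h, 4.18, 7.12 and 6.85 CPM at 6 h and 4.85, 3.59 and 1.26 CPM at 24 h. At 72 h it read 24.6, 31.8 and 26.7 CPM. Every 24 h mouse lay under every 1 h mouse (edgeR adjusted p = 8.23e-05). Cenpf was the 1 listed mitosis gene called lower, while 14 were called higher. Only 4 of the 32 had the sham minimum of 2 CPM. Hjurp and Haus4, which also act in cell division and are in the set, were not on this list.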

How the data were processed

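The authors deposited whole-number read counts per Ensembl gene and FPKM values for 18 libraries from oligo(dT)-selected RNA, 1 per mouse, and both tables were used as deposited. Per the submitters' processing notes, reads were handled with cutadapt 1.18, HISAT2 2.1.0 and featureCounts on mm10; the strand setting and annotation are not given in the sources used here. At 6 h, the deposited FPKM of replicate 2 derive from the counts of replicate 3 and the reverse, which leaves group means unchanged. Gene positions are from GENCODE M21 (30512 of 30583 IDs matched) and promoters from RefSeq (GRCm38.p6). RefSeq and GENCODE starts can differ by some bases.

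CPM is the count over the library total (18.2 to 25.1 megacounts). Tests used R 4.3.3 with edgeR 4.0.16 (filterByExpr, 14272 genes removed and 16311 kept; TMM; glmQLFit with 1 mean per group over 18 libraries; glmQLFTest, two-sided; Benjamini-Hochberg threshold 0.05). The biological coefficient of variation was 0.149. Alternatives used DESeq2 1.42.0, and limma 3.58.1 on log2(FPKM + 1) for genes with a mean FPKM of at least 0.5. The labels describe separate mice. The fit was run on simulated counts of 16311 genes with 1 spread for all genes. Of 50 genes changed by each fold, it called 17 at 1.5-fold, 39 at 2-fold, 50 at 4-fold and 36 at 0.5-fold. There were 7 false calls. The simulation held no shift in library makeup, so it could not test the choice of scaling. The 180 genes, the lists and the tests were chosen with earlier results of these data known.

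Named genes were the 8 with the widest span from 6 h to 72 h (mean of at least 50 counts, no predicted gene symbols). The top 3 by mean CPM of each list with 2 or more of the genes were named too. So were the 4 with the smallest adjusted p in each direction at 24 h against 1 h, and those nearest each limit. Others with tests are marked, except Fap, Col6a1 and Col6a2, members of lists that these criteria do not cover. Some further genes are given by name only. Exons of 15 of the 180 genes overlap another expressed gene, 13 on the opposite strand, and their counts are uncertain. Reads carry no molecular identifiers.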

Additional observations from a re-analysis of the deposited data

How the results depend on the processing

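The rule gave 180 genes with library totals, 65 with TMM, 62 with DESeq2 size factors, 112 with a sham minimum of 5 CPM, 31 with limits of 1 and 516 with limits of 0.5, and 150 (without sham replicate 3) to 226 (without 6 h replicate 2) when 1 library was left out. At 24 h against 1 h, a fit to only the 6 libraries compared called 38 of the 180 genes (15 higher, 23 lower). That fit called 34.7% of all genes tested. Leaving out 1 library gave 47 to 70 of the 180, against 33.4 to 46.1% of all genes tested. At 24 h against 10 min the same settings gave 44 (9 higher, 35 lower) and 50 to 76. Of all genes tested these settings called 32.7% and 31.1 to 44.2%. Without replicate 2 at 24 h the split against 10 min was 6 higher and 70 lower, beside 3454 higher and 3008 lower of 16721 genes. At 1 h against 10 min DESeq2 called 1 gene, limma 1 and the fit to 6 libraries 6, and each fit that left out 1 library called 0. With the replicate number as a replicate block, 62, 71 and 0 genes were called. Deviations of same-numbered libraries correlated only weakly, at -0.08 to 0.09. Between 1 h and 10 min the same-numbered library was still the best match in 6 of 6 comparisons. It was so in 2 of 6 for 24 h against 1 h and in 0 of 6 for 24 h against 10 min. Scaling by library totals turned the split of calls from 24 higher and 39 lower to 40 and 19 at 24 h against 1 h, and the median of all genes moved with it. Of 390 alternative values of the named genes' change from 1 h to 24 h, 366 kept their side of the threshold, 9 lost it and 14 gained it. The other, Cd72 without replicate 2 at 24 h, turned from 0.23 to -0.67, and leaving out single libraries moved Cd72 between -0.67 and 0.61. With TMM, 29 of the named genes' 56 ratios to sham at 6 and 72 h moved by at least the SD of 3 libraries. The log2 ratio at 72 h was then 0.24 in Pde5a, 0.26 in Plxnd1, 0.28 in Cbx2 and 0.36 in Cbx8. The ratio was 0.39 in Heyl, 0.42 in Islr, 0.49 in Ogn and 0.50 in Itih5, all under the limit of 0.7. All 180 genes stayed above sham at 72 h on that scale, and 64 kept both limits. Genes at 2 to 5 CPM in sham rest on few counts at 6 h, and 4 of the 180 had under 10 counts in some library.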
